A study of Mus musculus with 8 samples.

Results

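In all, 9 genes that link the cytokines IL-12 and IL-18 to interferon-gamma were followed across thymic natural killer T (NKT) cells with and without Ezh2. They were Ifng, which encodes interferon-gamma itself, Il12rb1 and Il12rb2 for the IL-12 receptor, Il18r1 and Il18rap for the IL-18 receptor, Stat4, Hopx, and Ifngr1 and Ifngr2 for the interferon-gamma receptor. The genes were taken by name from the table of read counts through their Entrez identifiers. All 9 were found among the 27179 identifiers of the table, and all 9 passed the filter on low counts that left 13794 genes for testing.

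The cells came from the thymus of C57BL/6 mice, per the labels, and are defined there by CD44 and NK1.1, both found on the cell surface. How the cells were separated is not described in the labels. Ezh2-KO and wild-type (WT) mice each gave 1 library of CD44- NK1.1- cells, 2 biological replicates of CD44+ NK1.1- cells and 1 library of CD44+ NK1.1+ cells, which makes 4 Ezh2-KO and 4 WT libraries. The Ezh2 gene encodes the methyltransferase of the Polycomb complex PRC2. The labels name no Cre driver or deletion design for Ezh2-KO, no age of the mice and no pooling, and do not say whether subsets were taken from the same animals. Neither genotype carries a further allele or treatment in the labels.

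IL-12 binds a receptor of the IL12RB1 and IL12RB2 chains and acts through the kinases JAK2 and TYK2 on STAT4, a transcription factor that drives Ifng. IL-18 binds IL18R1, recruits the accessory chain IL18RAP and acts through MYD88 on NF-kappaB and MAP kinases, and IL-12 and IL-18 together raise Ifng far more than either does alone. Interferon-gamma then binds IFNGR1 and IFNGR2 on its target cells and acts through the kinases JAK1 and JAK2. In the thymus this equipment is a known mark of NKT1 cells, which express T-bet and mostly carry NK1.1, whereas CD44- NK1.1- cells are commonly placed earlier in NKT development and CD44+ NK1.1- cells between them.

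Promoters are printed for 4 of the genes because their levels carry the results given further on. Ifng was the gene that differed most between the WT replicates, Il12rb2 rose with stage in both genotypes, Il18rap was lower in Ezh2-KO CD44+ NK1.1- cells, and Ifngr2 fell with stage. Each sequence covers 250 bases before and 50 bases after the annotated start of transcription, 5′ to 3′ on the strand of the gene, from RefSeq on GRCm38.p6. The capitals mark matches to the motifs named below the sequences. The windows are chr10:118440796-118441095 on the plus strand for Ifng, chr6:67376139-67376438 on the minus strand for Il12rb2, chr1:40515112-40515411 on the plus strand for Il18rap and chr16:91546809-91547108 on the plus strand for Ifngr2.
Ifng: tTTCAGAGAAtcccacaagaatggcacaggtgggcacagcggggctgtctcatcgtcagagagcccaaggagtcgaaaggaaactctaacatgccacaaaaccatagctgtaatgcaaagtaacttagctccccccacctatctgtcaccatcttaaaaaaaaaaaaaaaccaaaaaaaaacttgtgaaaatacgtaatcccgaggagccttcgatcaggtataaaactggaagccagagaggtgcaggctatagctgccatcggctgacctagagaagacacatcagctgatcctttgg
Il12rb2: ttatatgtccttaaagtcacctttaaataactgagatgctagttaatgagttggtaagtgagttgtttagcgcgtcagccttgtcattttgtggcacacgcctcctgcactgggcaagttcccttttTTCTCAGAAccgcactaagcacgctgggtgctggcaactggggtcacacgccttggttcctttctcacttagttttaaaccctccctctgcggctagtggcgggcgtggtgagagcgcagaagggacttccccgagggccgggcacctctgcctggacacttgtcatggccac
Il18rap: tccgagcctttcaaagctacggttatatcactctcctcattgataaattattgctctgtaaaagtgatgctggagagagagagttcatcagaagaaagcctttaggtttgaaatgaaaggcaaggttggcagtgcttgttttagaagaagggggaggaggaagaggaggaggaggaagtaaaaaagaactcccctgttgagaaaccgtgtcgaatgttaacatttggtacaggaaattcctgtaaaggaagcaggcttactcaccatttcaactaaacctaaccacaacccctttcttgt
Ifngr2: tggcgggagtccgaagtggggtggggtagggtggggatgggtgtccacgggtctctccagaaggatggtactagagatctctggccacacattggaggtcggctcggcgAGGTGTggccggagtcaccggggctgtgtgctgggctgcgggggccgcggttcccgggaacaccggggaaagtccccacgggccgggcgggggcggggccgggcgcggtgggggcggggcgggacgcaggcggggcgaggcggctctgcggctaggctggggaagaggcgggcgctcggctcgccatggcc

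Windows of the same kind were searched on both strands for TTCNNNGAA, the core that STAT factors bind, for AGGTGT, a core of the sites of T-box factors such as T-bet and EOMES, and for TGANTCA, the site of AP-1. No pair of matches in the printed windows overlapped. Of 32851 mouse promoters, 8.30% held TTCNNNGAA, 13.7% held AGGTGT and 7.81% held TGANTCA. Promoters were on hand for 8 of the 9 genes, all but Il12rb1, and 3 of those 8 held TTCNNNGAA in at least 1 window. Il18r1 had 3 windows and Stat4 and Hopx 2 each, whereas the shares above are of single windows, so the 2 are not alike. The match began at base -249 from the start in Ifng and at base -123 in Il12rb2, and the third annotated start of Il18r1 had matches at bases -219 and -152. AGGTGT appeared in Ifngr2 alone, at base -141, and TGANTCA in none of the 8. The printed window of Il18rap held none of the 3 motifs, and neither did the windows of Stat4, Hopx and Ifngr1. A match is a run of letters and was not tested as a binding site.

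On mm10, the build of the counts, Ifng (gene 15978) lies on chromosome 10 from 118441046 to 118445894 on the plus strand and Ifngr1 (gene 15979) on the same chromosome from 19591949 to 19610229. Il18r1 (gene 16182) and Il18rap (gene 16174) are neighbours on chromosome 1, from 40465552 to 40500854 and from 40515362 to 40551707, with 14507 bases between them. Stat4 (gene 20849) occupies 51987106 to 52107189 of the same chromosome. Il12rb1 (gene 16161) lies on chromosome 8 from 70808360 to 70823542, Il12rb2 (gene 16162) on chromosome 6 from 67285986 to 67376293, Hopx (gene 74318) on chromosome 5 from 77086986 to 77115123 and Ifngr2 (gene 15980) on chromosome 16 from 91547059 to 91564007. Il12rb2 and Hopx are on the minus strand and the others on the plus strand. All are protein-coding genes, and the counts are sums over each gene. The annotated Il12rb2 overlaps its neighbour Serbp1 by 3317 bases, and the strand setting of the counting is not given in the sources used here. Serbp1 stayed between 880 and 1004 CPM, the counts scaled to a common library size of 1e6, in all 8 libraries, over which Il12rb2 ranged from 1.15 to 194 CPM.

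Depth lay between 20308745 and 22995090 counts per library, so that 0 reads in a library allow a level of up to 3 counts, or 0.129 to 0.151 CPM. Levels below are CPM after TMM scaling, single values unless a replicate number is given. Cd44 ran from 135 to 452 CPM in the CD44+ libraries, against 17.9 CPM in Ezh2-KO and 17.04 CPM in WT CD44- NK1.1- cells. Klrb1c, the gene for NK1.1, was at 1447 and 1146 CPM in the CD44+ NK1.1+ libraries of Ezh2-KO and WT, against 15.4 to 217 CPM in the NK1.1- libraries. All 11 genes of a list for NKT and T cells were present in every library, with summed levels of 6715 to 7831 CPM. Among markers of other cells, myeloid and dendritic genes summed to 9.54 to 27.6 CPM, and erythroid genes to 19.7 to 59.5 CPM in 3 Ezh2-KO libraries and 0.540 to 1.68 CPM in the other 5 libraries. B cell genes summed to 347 CPM in Ezh2-KO and 300.3 CPM in WT CD44+ NK1.1+ cells, against 120 to 160 CPM in the NK1.1- libraries. Ighm, the immunoglobulin heavy chain gene, made up most of these sums, at 339 CPM in Ezh2-KO and 296 CPM in WT CD44+ NK1.1+ cells, while the B cell factor genes Pax5 and Ebf1 stayed at or below 0.0902 CPM in every library. The part of these other cells in the differences below was not tested. Ezh2 was lower in each Ezh2-KO group than in the WT group of its subset, at 40.4 to 83.3 CPM over the Ezh2-KO libraries and 57.2 to 136 CPM over the WT libraries, a log2 difference of -0.56 over the subsets (SE 0.07, adjusted p = 0.00402 by edgeR). Reads over the gene therefore remained, and a sum over the whole gene does not show which part was deleted.

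The replicates of WT CD44+ NK1.1- cells stood apart, and the levels of the 9 genes are given separately for each. Fitted differences of the gene lists use both WT replicates unless stated. Among genes averaging at least 5 CPM, 13 of 10059 differed over 1.5-fold between the Ezh2-KO replicates, against 826 of 9950 between WT replicates 1 and 2. None of the 9 genes followed here lay over 1.5-fold apart between the Ezh2-KO replicates, beside 7.47% of all genes tested. In WT, 5 were over 1.5-fold higher in replicate 1 than in replicate 2, beside 11.4% of all genes tested.

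**Figure D1:**
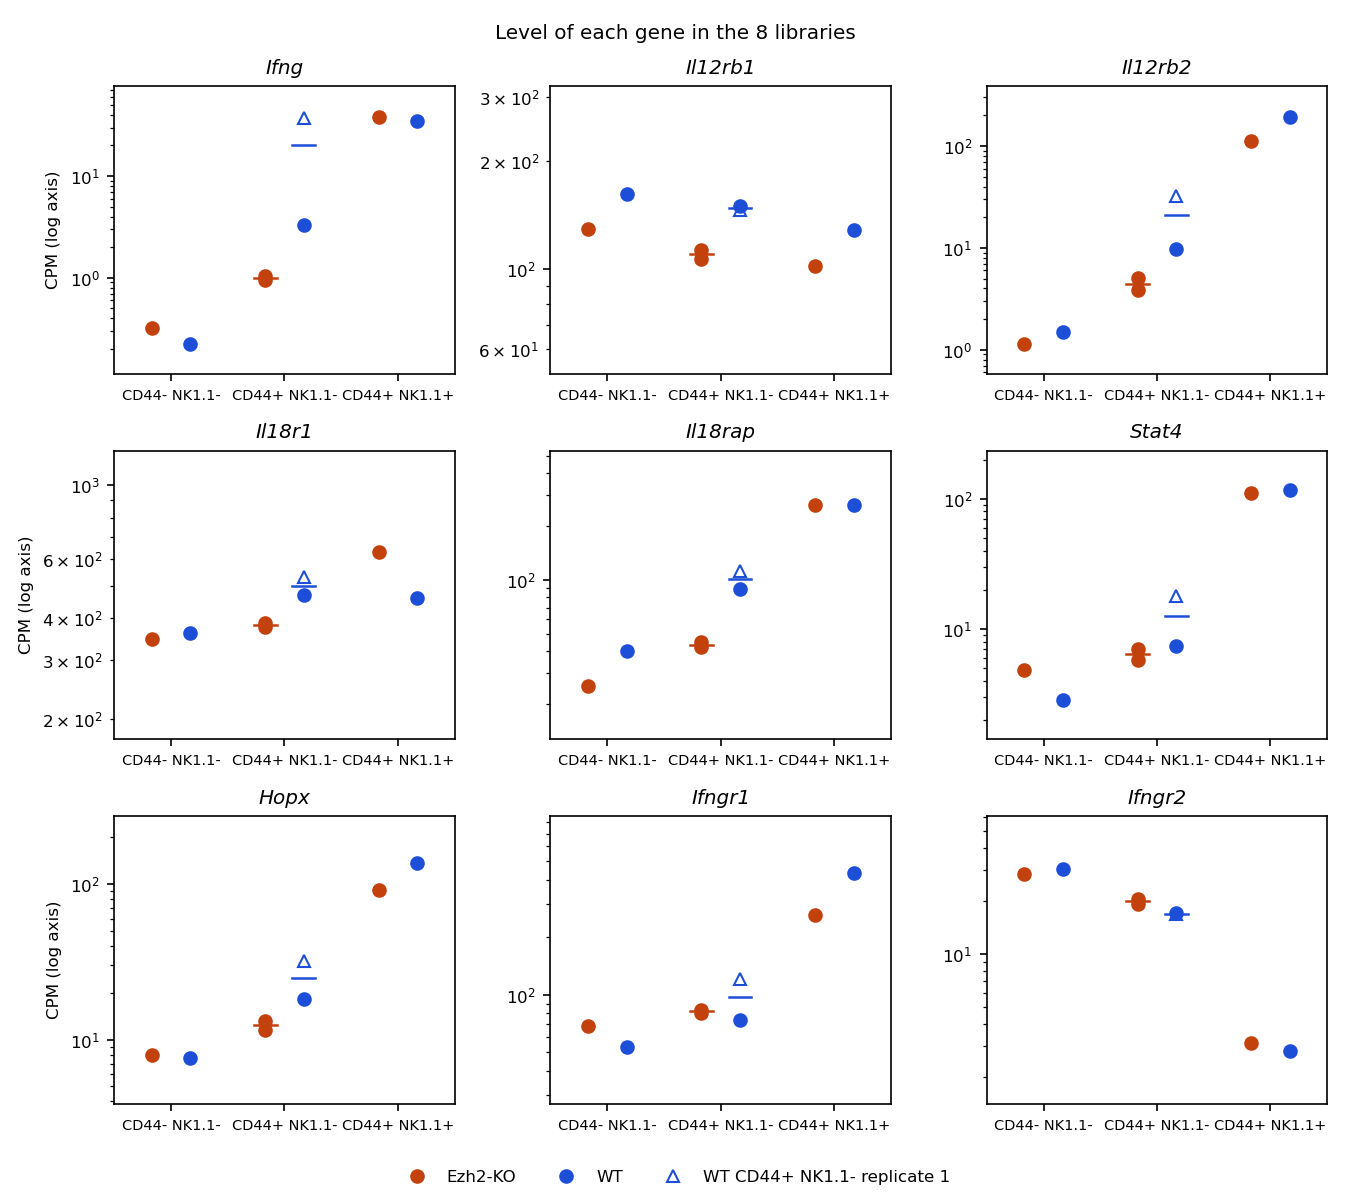
Level of each of the 9 genes in the 8 libraries, in CPM on a log axis, by subset from CD44- NK1.1- to CD44+ NK1.1+. Orange points are Ezh2-KO, blue points WT, the open triangle WT CD44+ NK1.1- replicate 1, and short lines the mean of 2 replicates. Il12rb2, Il18rap, Stat4, Hopx and Ifngr1 climb to the right in both genotypes, Ifngr2 descends, and the triangle of Ifng, at 36.8 CPM, sits at the height of the CD44+ NK1.1+ points.

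Ifng, the cytokine gene at the end of the pathway, was close to absent in CD44- NK1.1- cells and abundant in CD44+ NK1.1+ cells of both genotypes. In Ezh2-KO it measured 0.321 CPM in CD44- NK1.1- cells, 1.05 and 0.945 CPM in the CD44+ NK1.1- replicates and 38.4 CPM in CD44+ NK1.1+ cells. In WT it measured 0.225 CPM in CD44- NK1.1- cells, 36.8 and 3.27 CPM in the CD44+ NK1.1- replicates and 34.8 CPM in CD44+ NK1.1+ cells. WT replicate 1 was thus as high as the NK1.1+ libraries, whereas WT replicate 2 lay between its replicate and the Ezh2-KO pair. The low levels rest on few reads, with 7 counts (95% exact Poisson interval 2.81 to 14.4) in Ezh2-KO and 5 counts (1.62 to 11.7) in WT CD44- NK1.1- cells, intervals that cover counting error only. The Ezh2-KO replicates held 22 and 21 counts, against 816 and 76 in the WT replicates.

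The 4 receptor genes for IL-12 and IL-18 differed in how much they varied between libraries. Il12rb1, whose product is shared with the IL-23 receptor, varied least. Ezh2-KO had 129 CPM in CD44- NK1.1-, 113 and 107 CPM in CD44+ NK1.1- and 102 CPM in CD44+ NK1.1+ cells, and WT had 161 CPM, 145 and 149 CPM, and 129 CPM in the same order. Within each subset every Ezh2-KO value lay below every WT value. Il12rb2, the chain that sets whether a T cell responds to IL-12, ranged widely. It measured 1.15 CPM, 5.01 and 3.87 CPM, and 112 CPM over the 3 successive subsets of Ezh2-KO, and 1.48 CPM, 32.3 and 9.76 CPM, and 194 CPM over those of WT. Here too the Ezh2-KO libraries were the lower ones in each subset. Il12rb1 and Il12rb2 were the only genes of the 9 with that order, 2 of 9 beside 14.5% of all genes tested.

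Il18r1, the chain that binds IL-18, was high in all cells, between 346 and 633 CPM. Ezh2-KO had 346 CPM in CD44- NK1.1-, 386 and 376 CPM in CD44+ NK1.1- and 633 CPM in CD44+ NK1.1+ cells, and WT had 362 CPM, 529 and 470 CPM, and 460 CPM. Its highest value was in Ezh2-KO NK1.1+ cells, while the WT NK1.1+ library lay below both WT CD44+ NK1.1- replicates. Il18rap, the signalling chain of the IL-18 receptor, measured 25.4 CPM, 44.7 and 42.1 CPM, and 265 CPM over the subsets of Ezh2-KO, and 40.1 CPM, 113 and 89.6 CPM, and 264 CPM over those of WT. Levels were lower in Ezh2-KO than in WT CD44+ NK1.1- cells and alike between genotypes in CD44+ NK1.1+ cells.

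Stat4 and Hopx, which act inside the cell, had similar profiles. Stat4 was at 4.86 CPM, 7.06 and 5.76 CPM, and 111 CPM over the subsets of Ezh2-KO, and at 2.83 CPM, 17.9 and 7.35 CPM, and 116 CPM over those of WT. WT replicate 2 of the CD44+ NK1.1- cells lay just above the Ezh2-KO replicates and WT replicate 1 well above them. Hopx encodes a small homeodomain protein without DNA binding of its own that is expressed in Th1 effector and memory cells. It measured 7.97 CPM, 11.5 and 13.1 CPM, and 91.9 CPM in Ezh2-KO and 7.64 CPM, 31.9 and 18.1 CPM, and 137 CPM in WT.

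The 2 chains of the interferon-gamma receptor ran in opposite directions with stage. Ifngr1, the chain that binds the cytokine, was at 68.9 CPM, 83.0 and 80.6 CPM, and 263 CPM in Ezh2-KO and at 53.3 CPM, 121 and 74.2 CPM, and 432 CPM in WT. The Ezh2-KO replicates of CD44+ NK1.1- cells fell between the WT replicates. Ifngr2, the signal-transducing chain, was at 28.4 CPM, 19.3 and 20.5 CPM, and 3.12 CPM in Ezh2-KO and at 30.4 CPM, 16.8 and 17.03 CPM, and 2.80 CPM in WT. Both NK1.1+ libraries lay far below the others.

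Per kilobase of the gene length given in the table, which allows genes to be set beside each other, the order in Ezh2-KO CD44+ NK1.1+ cells was Il18r1 (132 CPM per kb), Ifngr1 (125), Il18rap (107), Hopx (60.8), Il12rb2 (38.0), Stat4 (37.3), Il12rb1 (35.5), Ifng (31.8) and Ifngr2 (1.51). In WT CD44+ NK1.1+ cells the order was Ifngr1 (206 CPM per kb), Il18rap (106), Il18r1 (96.2), Hopx (90.9), Il12rb2 (65.8), Il12rb1 (44.8), Stat4 (39.0), Ifng (28.9) and Ifngr2 (1.35). Il18r1 therefore led in Ezh2-KO and Ifngr1 in WT. In CD44- NK1.1- cells Il18r1 led in both genotypes, at 72.5 CPM per kb in Ezh2-KO and 75.7 in WT, with Il12rb1 next, at 44.9 and 56.1. With 1 library in each of these groups, neighbours in the order have no spread of their own.

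The stage comparison asked which of these genes differ between CD44+ NK1.1+ and CD44+ NK1.1- cells, as the mean over both genotypes. These are bulk samples, so a change within cells and a different mix of cells cannot be told apart. CD44+ NK1.1+ cells had higher levels than CD44+ NK1.1- cells for 6 genes, namely Il12rb2, Stat4, Hopx, Il18rap, Ifngr1 and, by a small margin, Il18r1. Ifngr2 fell. Ifng and Il12rb1 did not pass the test. The 7 of 9 that changed compare with 32.5% of all genes tested, 16.4% higher and 16.1% lower. Of all called genes 50.5% were higher, a share that was 31.8% with scaling by library size. A gene counts as changed at an adjusted p under 0.05 over all genes tested, from the two-sided quasi-likelihood test of edgeR with Benjamini-Hochberg adjustment.

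The log2 fold changes of CD44+ NK1.1+ over CD44+ NK1.1- cells were 3.93 (SE 0.57, adjusted p = 0.0226) for Il12rb2, 3.66 (SE 0.37, adjusted p = 0.00571) for Stat4 and 2.68 (SE 0.22, adjusted p = 0.00137) for Hopx. Il18rap rose by 1.996 (SE 0.11, adjusted p = 0.000494) and Ifngr1 by 1.92 (SE 0.19, adjusted p = 0.00216), while Ifngr2 fell by 2.63 (SE 0.13, adjusted p = 0.000421). Il18r1 rose by 0.31 (SE 0.09, adjusted p = 0.0383), but the genotypes went apart. In Ezh2-KO libraries alone its difference was 0.73 and in WT libraries alone it was -0.12, and with scaling by library size the mean over genotypes lost its call (0.17, adjusted p = 0.157), in a scaling that moved the median of all genes by -0.13. Il12rb2 missed the threshold when the first (adjusted p = 0.166) or the second (adjusted p = 0.182) Ezh2-KO replicate was left out and with no filter on low counts (adjusted p = 0.0637), at values of 3.84 to 4.03. It also missed it in either genotype alone. Stat4 missed the threshold without Ezh2-KO replicate 2 (3.59, adjusted p = 0.0506), and Il18r1 missed it without either Ezh2-KO replicate (adjusted p = 0.186 and 0.218).

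Ifng had a difference of 3.03 (SE 1.19, adjusted p = 0.171) in that comparison, which was 4.34 without WT replicate 1. It was 5.26 in Ezh2-KO libraries alone and 0.80 in WT libraries alone. The DESeq2 Wald test (adjusted p = 0.0310) and edgeR without robust estimation of the spread (adjusted p = 0.0401) called it. Il12rb1 differed by -0.15 (SE 0.08, adjusted p = 0.186), and by -0.29 (adjusted p = 0.0340) with scaling by library size.

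Between the earlier subsets fewer of the genes changed. CD44+ NK1.1- cells were higher than CD44- NK1.1- cells for Il18rap, by 1.05 (SE 0.12, adjusted p = 0.0126), and lower for Ifngr2, by -0.68 (SE 0.10, adjusted p = 0.0291), 2 of 9 beside 2.66% of all genes tested (1.59% higher and 1.07% lower). With the first or the second Ezh2-KO replicate left out, neither Il18rap (adjusted p = 0.0707 and 0.0593) nor Ifngr2 (adjusted p = 0.297 and 0.246) passed. Ifng (4.03, adjusted p = 0.543), Il12rb2 (2.88, adjusted p = 0.276), Stat4 (1.27, adjusted p = 0.313) and Hopx (1.17, adjusted p = 0.102) had larger differences that did not pass, and these shrank to 2.72, 2.33, 0.89 and 0.94 without WT replicate 1.

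CD44+ NK1.1+ against CD44- NK1.1- cells sets the last of the 3 subsets beside the first and rests on the libraries without replicates for its means. Of the 9 genes 8 changed, beside 32.2% of all genes tested, 49.7% of them higher, or 33.2% with scaling by library size. The 6 that rose were Il12rb2 by 6.81 (adjusted p = 0.0189), Stat4 by 4.94 (adjusted p = 0.00587), Hopx by 3.85 (adjusted p = 0.000859), Il18rap by 3.05 (adjusted p = 0.000206), Ifngr1 by 2.48 (adjusted p = 0.00173) and Il18r1 by 0.61 (adjusted p = 0.00717). Ifngr2 changed by -3.31 (adjusted p = 0.000201) and Il12rb1 by -0.33 (adjusted p = 0.0358). Il12rb2 (adjusted p = 0.111 and 0.114) and Il12rb1 (adjusted p = 0.168 in both) did not pass with either Ezh2-KO replicate left out. Nor did they pass within Ezh2-KO alone (adjusted p = 0.0641 and 0.126) or WT alone (adjusted p = 0.0583 and 0.144). Il12rb2 also missed the threshold with no filter on low counts (adjusted p = 0.0549), Il12rb1 by the DESeq2 Wald test (adjusted p = 0.0577) and Il18r1 within WT alone (adjusted p = 0.157). Ifng had the largest difference of the 9, 7.06 (SE 2.03), and did not pass (adjusted p = 0.102), whereas the DESeq2 Wald test called it (adjusted p = 2.98e-06) and so did edgeR without robust estimation of the spread (adjusted p = 0.0161).

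A group of 5 genes, Il12rb2, Il18rap, Stat4, Hopx and Ifngr1, had both CD44+ NK1.1+ libraries above the other 6, beside 21.7% of all genes tested, and the same 5 climbed from subset to subset in each genotype without overlap, beside 8.87%. The list of NK and innate lymphoid genes, of which NKT1 cells express many, was also highest there, at summed levels of 2199 CPM in Ezh2-KO and 1129 CPM in WT CD44+ NK1.1+ cells. The CD44+ NK1.1- libraries summed to 253 to 458 CPM. Most of that was Trgc4, a T cell receptor gamma gene on the list, at 255 to 258 CPM in Ezh2-KO and 202 and 220 CPM in WT replicates 1 and 2. The part of this list in the result was not tested. In bulk samples, fewer cells of a type and less RNA per cell cannot be told apart. Il4, a cytokine of NKT2 cells, went the other way, at 2.16 CPM in Ezh2-KO and 6.99 CPM in WT CD44+ NK1.1+ cells against 22.1 to 28.1 CPM in the CD44+ NK1.1- libraries.

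**Figure D2:**
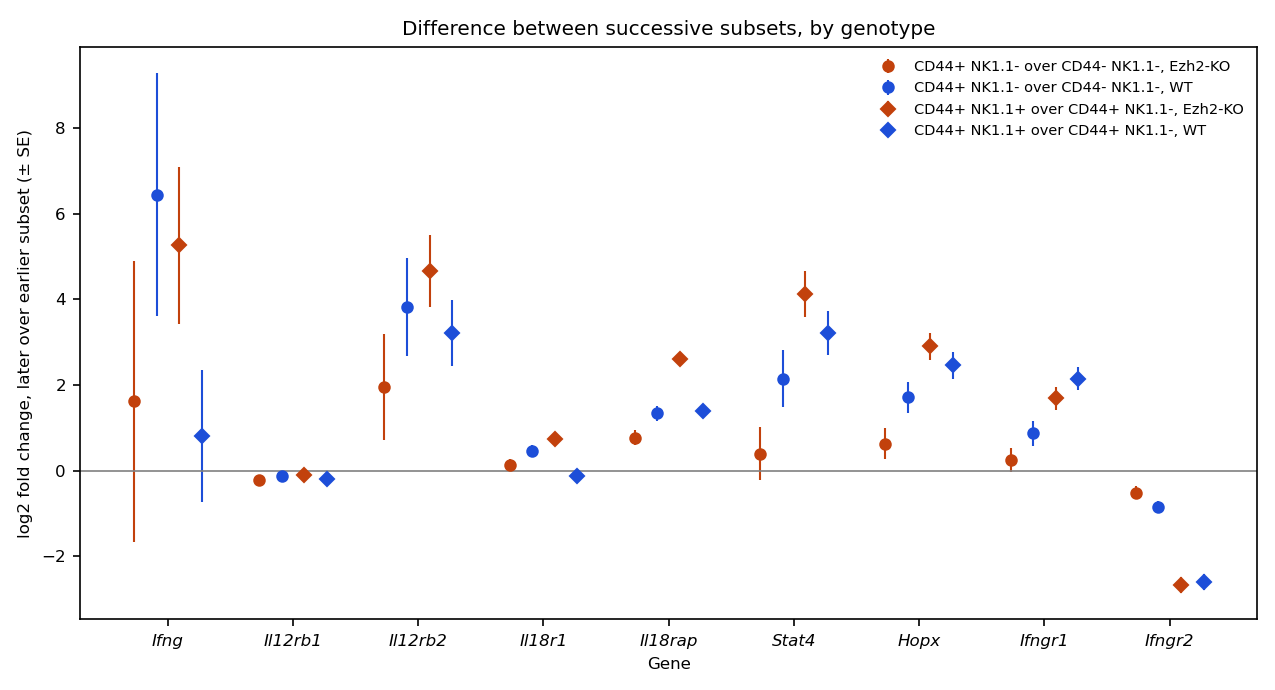
Log2 fold change of the later over the earlier subset for each gene, with the SE of the fit, taken in Ezh2-KO libraries (orange) and WT libraries (blue) apart. Circles are CD44+ NK1.1- over CD44- NK1.1- cells and diamonds CD44+ NK1.1+ over CD44+ NK1.1- cells. For Ifng the larger step is the second in Ezh2-KO (5.26) and the first in WT (6.44), with SE above 1 for all 4 points. Both WT steps of Ifng use the mean of WT replicates 1 and 2, at 36.8 and 3.27 CPM, so their sizes depend on WT replicate 1. WT CD44- NK1.1- cells were at 0.225 CPM and WT CD44+ NK1.1+ cells at 34.8 CPM.

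The genotype comparison asked what loss of Ezh2 does to these genes, and CD44+ NK1.1- cells are the subset with replicates on both sides. Ezh2-KO cells were lower than WT cells for 8 of the 9 genes in their means, all but Ifngr2. The median log2 difference of all genes tested was -0.005. Without WT replicate 1, Ifngr1 turned to 0.14 and Stat4 shrank to -0.20. Il18rap was the gene that passed the test with all libraries. That is 1 of 9 beside 4.94% of all genes tested, of which 3.78% were higher and 1.16% lower. Il18rap averaged 43.4 ± 1.86 CPM in Ezh2-KO and 101 ± 16.5 CPM in WT cells (SD, n = 2 each), a log2 fold change of -1.22 (SE 0.13, adjusted p = 0.00725 by the edgeR quasi-likelihood test). It was -1.05 without WT replicate 1. With either Ezh2-KO replicate left out it missed the threshold, at -1.27 (adjusted p = 0.0792, replicate 1 out) and -1.18 (adjusted p = 0.0876, replicate 2 out).

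The largest difference belonged to Ifng, which averaged 0.997 ± 0.0739 CPM in Ezh2-KO and 20.03 ± 23.7 CPM in WT cells (SD, n = 2 each). Its log2 fold change of -4.32 (SE 1.69, adjusted p = 0.325 by edgeR) did not pass, with WT replicates that lay 11.3-fold apart. Without WT replicate 1 it was -1.71, and the mean of the Ezh2-KO replicates was 0.305 times WT replicate 2. Il12rb2 averaged 4.44 ± 0.805 CPM in Ezh2-KO and 21.0 ± 15.9 CPM in WT cells (SD, n = 2 each), a difference of -2.24 (SE 0.75, adjusted p = 0.248 by edgeR) that became -1.14 without WT replicate 1. The Ezh2-KO mean of Il12rb2 was 0.455 times WT replicate 2. For both genes the Ezh2-KO replicates stayed below the lower WT replicate, and so they did for Il12rb1, Il18r1, Il18rap, Hopx and Stat4. Ifngr1 and Ifngr2 lacked that order. It was not counted over all genes in this subset, so it has no share to be set beside.

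Hopx differed by -1.02 (SE 0.28, adjusted p = 0.116), or by -0.56 without WT replicate 1, with an Ezh2-KO mean 0.679 times WT replicate 2. Stat4 differed by -0.97 (SE 0.47, adjusted p = 0.353), or by -0.20 without WT replicate 1, with an Ezh2-KO mean 0.872 times WT replicate 2. For Stat4 most of the difference therefore came from WT replicate 1. Ifngr1 differed by -0.25 (SE 0.23, adjusted p = 0.599) and its sign turned without WT replicate 1, to 0.14.

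Il12rb1 (-0.42, SE 0.09, adjusted p = 0.0579) and Il18r1 (-0.39, SE 0.10, adjusted p = 0.0913) had small differences with little spread. Ezh2-KO averaged 110 ± 4.54 CPM and WT 147 ± 2.75 CPM for Il12rb1, and Ezh2-KO averaged 381 ± 7.45 CPM and WT 500 ± 42.0 CPM for Il18r1 (SD, n = 2 each). Without WT replicate 1 they were -0.44 and -0.30. Ifngr2 differed by 0.24 (SE 0.12, adjusted p = 0.344). The DESeq2 Wald test called 5 of the 9 here, adding Ifng (adjusted p = 0.0265), Il12rb1 (adjusted p = 0.0405), Il18r1 (adjusted p = 0.0344) and Hopx (adjusted p = 0.00648) to Il18rap. The share of all genes stated for this comparison is that of edgeR, and none is given for the DESeq2 test.

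**Figure D3:**
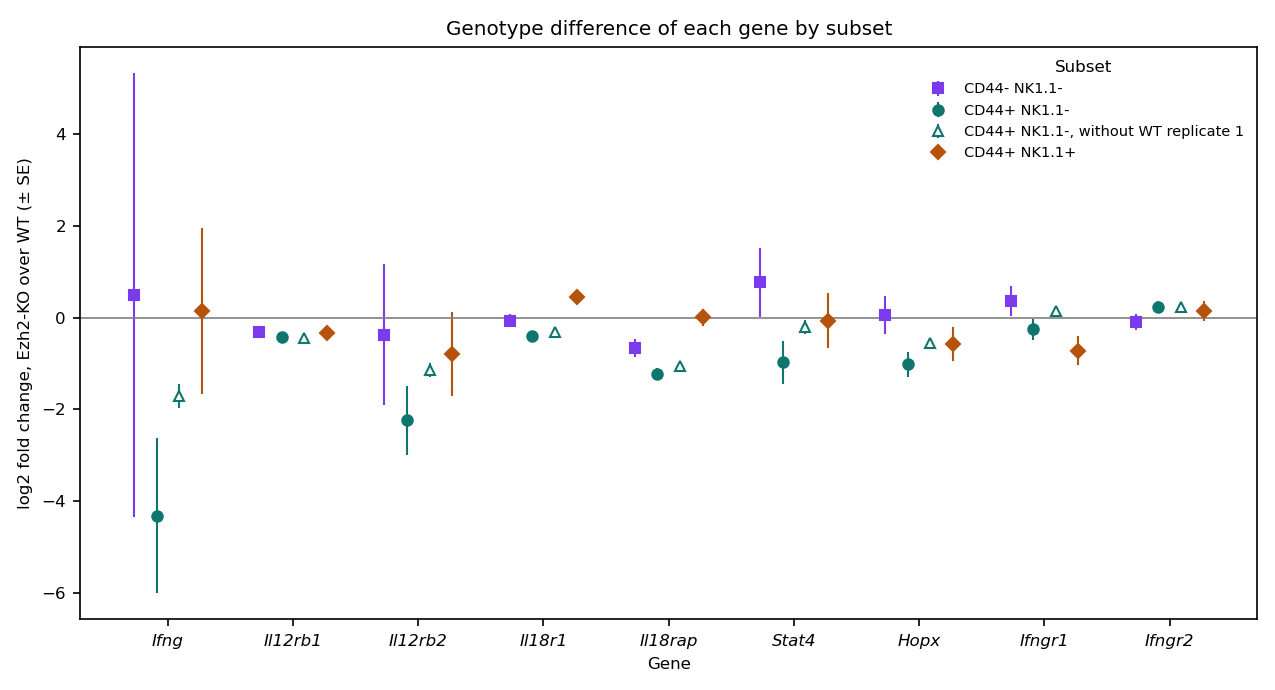
Log2 fold change of Ezh2-KO over WT for each gene, with the SE of the fit, in CD44- NK1.1- cells (squares), CD44+ NK1.1- cells (circles), the same without WT replicate 1 (open triangles) and CD44+ NK1.1+ cells (diamonds). In CD44+ NK1.1- cells the circles of 8 genes lie below 0, while the triangle of Ifngr1 lies above it, at 0.14. For Ifng the triangle at -1.71 stands well above the circle at -4.32. The 3 filled points of Il12rb1 lie close together, between -0.42 and -0.32.

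Over the 3 subsets together, fitted as subset plus genotype, Il12rb1 was the gene that passed. It was lower in Ezh2-KO by -0.38 (SE 0.05, adjusted p = 0.00545 by edgeR), lower in each of the 3 subsets, and the difference within subsets was -0.32 in CD44- NK1.1-, -0.42 in CD44+ NK1.1- and -0.34 in CD44+ NK1.1+ cells. This call held in every alternative that was run, including without each of the 8 libraries in turn, with adjusted p from 2.33e-06 to 0.0378. It is 1 of 9 beside 11.3% of all genes tested, 6.43% higher and 4.89% lower. The share of all called genes that were higher was 56.8%, or 68.1% with scaling by library size. The other genes gave -2.28 (adjusted p = 0.404) for Ifng, -1.52 (adjusted p = 0.169) for Il12rb2, -0.77 (adjusted p = 0.0784) for Il18rap, -0.66 (adjusted p = 0.128) for Hopx and between -0.36 and 0.13 for Stat4, Ifngr1, Il18r1 and Ifngr2. Without WT replicate 1, Il12rb2 (-0.88, adjusted p = 0.00132) and Hopx (-0.44, adjusted p = 0.0296) passed as well, and Stat4 turned to 0.03. Il18rap passed at -1.04 when either CD44+ NK1.1+ library was left out.

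In the subsets with 1 library of each genotype the lone libraries are assumed to vary like the replicated ones. None of the 9 genes passed in CD44+ NK1.1+ cells, beside 0.95% of all genes tested, and 2 had an unadjusted p under 0.05, beside 10.1%. These were Il18r1, higher in Ezh2-KO by 0.46 (adjusted p = 0.311), and Il12rb1. Ifng (0.14), Stat4 (-0.07) and Il18rap (0.01) were close in level between genotypes, whereas Il12rb2 (-0.79), Ifngr1 (-0.72) and Hopx (-0.58) were lower in the Ezh2-KO library, with adjusted p of 0.922, 0.557 and 0.756. None of the 9 passed in CD44- NK1.1- cells, beside 0.239% of all genes tested, and again 2 had an unadjusted p under 0.05, beside 9.04%, which were Il18rap (-0.66, adjusted p = 0.357) and Il12rb1 (-0.32, adjusted p = 0.534). The DESeq2 Wald test called none of the 9 in either subset.

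Whether the genotype difference itself changed between subsets was tested as an interaction. In CD44+ NK1.1+ cells it was above that in CD44+ NK1.1- cells by 1.23 for Il18rap (SE 0.23, adjusted p = 0.638) and by 0.85 for Il18r1 (SE 0.17, adjusted p = 0.649) in the edgeR model across all genes. None of the 9 passed, beside 0% of all genes tested, 519 of which had an unadjusted p under 0.05. The DESeq2 Wald test called 28 genes, among them Il18rap (adjusted p = 0.0104) and Il18r1 (adjusted p = 0.0346). Between CD44- NK1.1- and CD44+ NK1.1- cells none of the 9 passed, beside 0.0217% of all genes tested. The large point estimates there, such as -4.82 for Ifng, had SE up to 5.50.

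The WT replicates of CD44+ NK1.1- cells were set beside WT CD44+ NK1.1+ cells to describe their gap. WT replicate 1 was above WT replicate 2 by 11.3-fold for Ifng, 3.31-fold for Il12rb2, 2.43-fold for Stat4, 1.76-fold for Hopx and 1.63-fold for Ifngr1. The ratio was 1.26 for Il18rap, 1.13 for Il18r1, 0.985 for Ifngr2 and 0.974 for Il12rb1. On a linear scale of CPM from WT replicate 2 to the WT CD44+ NK1.1+ library, WT replicate 1 stood 12.2% of the way for Il12rb2, 13.4% for Il18rap, 9.63% for Stat4, 11.5% for Hopx and 13.0% for Ifngr1, and 13.8% for Klrb1c. Ifng stood at 106%. Across 1083 genes that were over 1.5-fold higher in WT CD44+ NK1.1+ cells than in WT replicate 2, with a mean of at least 10 CPM, the median was 22.8% (quartiles 10.4% and 44.2%), and 61 genes (5.63%) stood at 100% or more.

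**Figure D4:**
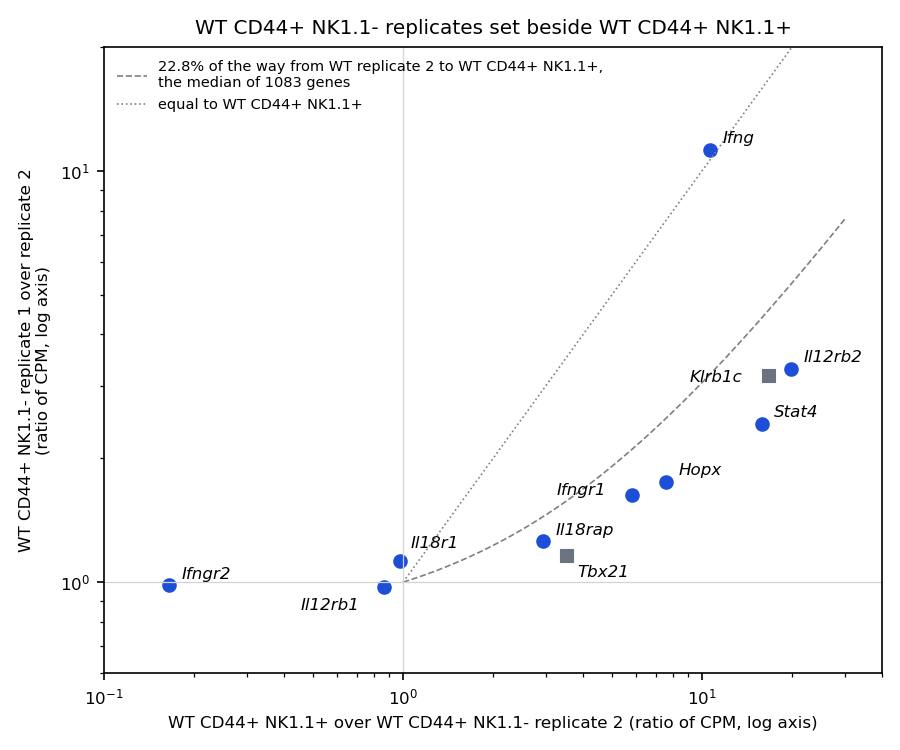
Ratio of WT CD44+ NK1.1- replicate 1 to replicate 2 (vertical) against the ratio of WT CD44+ NK1.1+ cells to replicate 2 (horizontal), both of CPM on log axes, for the 9 genes (blue circles) and for Klrb1c and Tbx21 (grey squares). The dotted line marks equality with the CD44+ NK1.1+ library and the dashed line the median position of 1083 genes, 22.8% of the way. Ifng lies on the dotted line at 11.3-fold, and Il12rb2, Stat4, Hopx, Ifngr1, Il18rap and Klrb1c lie below the dashed line, at 9.63% to 13.8% of the way.

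Other genes that moved with WT replicate 1 are given here as measurements, and their part in its Ifng level was not tested. Immediate early genes, which are quickly induced in stimulated cells, had a sum of 1268 and 1168 CPM in the Ezh2-KO replicates, against 4537 and 1347 CPM in WT replicates 1 and 2. Of these genes 15 of 20 were over 1.5-fold higher in WT replicate 1 than in WT replicate 2, and 2 were over 1.5-fold lower. Fos was at 18.2 and 15.5 CPM in the Ezh2-KO replicates, at 125 CPM in the first WT replicate and at 2.88 CPM in the second. The median difference of this list between Ezh2-KO and WT CD44+ NK1.1- cells was -1.38, or -0.04 without WT replicate 1. Among genes of IL-18 and NF-kappaB signalling, the inhibitors Tnfaip3 (1218 against 48.3 CPM) and Nfkbia (710 against 82.7 CPM) and the stress-response gene Gadd45b (47.5 against 4.47 CPM) stood out between WT replicates 1 and 2. Bhlhe40, a transcription factor that supports Ifng expression, was at 199 against 9.46 CPM. Of the other NKT1 genes 13 of 19 were over 1.5-fold higher in WT replicate 1, with a median ratio of 2.48, as were 7 of 9 NK and innate lymphoid genes, 7 of 10 genes of immature thymocytes and none of 11 NKT and T cell genes, beside 11.4% of all genes tested. The Ezh2-KO replicates were over 1.5-fold apart for none of these 19 NKT1 genes, for 1 of the 9 NK and innate lymphoid genes and for 5 of the 10 thymocyte genes, beside 7.47% of all genes tested. Klrb1c was at 50.04 and 41.7 CPM in the Ezh2-KO replicates and at 217 and 68.5 CPM in WT replicates 1 and 2. Myeloid and dendritic genes summed to 15.9 and 9.54 CPM in Ezh2-KO replicates 1 and 2, against 21.2 and 14.6 CPM in WT replicates 1 and 2. Of 9 tested, 5 were over 1.5-fold apart between the Ezh2-KO replicates and 6 were over 1.5-fold higher in WT replicate 1 than in WT replicate 2.

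Transcripts of the ligands of both receptors were at or below the level of 3 counts. Il12b was at 0 in all 8 libraries, Il12a was at 0 in 7 libraries and at 0.0482 CPM in WT CD44+ NK1.1+ cells, and Il18 was at or below 0.137 CPM. Il18bp, the soluble inhibitor of IL-18, was at 1.06 to 1.33 CPM in the Ezh2-KO libraries and 1.38 to 1.88 CPM in the WT libraries. It differed by -0.45 over the subsets (SE 0.22, adjusted p = 0.229). Over the subsets 6.43% of all genes tested rose and 4.89% fell. Of the list of ligand and inhibitor genes 3 were tested, and 1 of them rose over the subsets (median 0.85). This was Ebi3, which encodes a chain of other cytokines of the IL-12 family, at 0.201 to 0.733 CPM in the Ezh2-KO libraries and 0 to 0.135 CPM in the WT libraries (2.91, SE 0.65, adjusted p = 0.0278). With stage, Il15, the gene of a cytokine that supports NK and NKT cells, was higher in CD44+ NK1.1+ cells, at 1.96 CPM in Ezh2-KO and 0.675 CPM in WT, than in CD44+ NK1.1- cells, at 0.620 and 0.450 CPM in Ezh2-KO and 0.180 and 0.258 CPM in WT (1.73, adjusted p = 0.0163). The levels of both genes were low, at the most 1.96 CPM, and Ebi3 stayed at or below the level of 3 counts in the WT libraries.

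Further genes of the pathways were taken as lists, each set beside the median of all genes tested, which lay between -0.01 and 0.00 in the comparisons given here. Of 13 genes of IL-12 receptor signalling, none rose and 1 fell in Ezh2-KO against WT CD44+ NK1.1- cells (median -0.11). Of all genes tested 3.78% rose and 1.16% fell. The gene was Socs1, an inhibitor of JAK kinases, at 24.3 and 25.7 CPM in Ezh2-KO against 47.2 and 36.9 CPM in WT replicates 1 and 2 (-0.75, adjusted p = 0.0440). Over the subsets Socs1 (-0.62, adjusted p = 0.00794) and Socs2 (-1.45, adjusted p = 0.0496) fell and none rose. That is 2 of 13 lower, beside 4.89% of all genes tested that fell and 6.43% that rose. Socs2 was at 0.900 to 0.954 CPM in the Ezh2-KO CD44+ NK1.1- replicates, against 4.28 and 1.38 CPM in WT replicates 1 and 2. With stage, 6 of the 13 were higher and none lower in CD44+ NK1.1+ than in CD44+ NK1.1- cells (median 0.42), beside 16.4% of all genes higher and 16.1% lower. The higher ones included the IL-12 receptor kinases Tyk2 (0.67, adjusted p = 0.00226) and Jak2 (0.51, adjusted p = 0.0452).

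Of 23 tested genes of IL-18 receptor signalling, none passed in Ezh2-KO CD44+ NK1.1- cells (median -0.23), where 5 had an unadjusted p under 0.05, beside 20.7% of all genes tested. Over the subsets Myd88, the adaptor of the receptor (-0.27, adjusted p = 0.0141), and the kinase gene Irak2 (-0.85, adjusted p = 0.0286) fell and none rose. That is 2 of 23 lower, beside 4.89% of all genes tested that fell and 6.43% that rose. Irak2 was at 4.95 to 5.92 CPM in the Ezh2-KO CD44+ NK1.1- replicates, against 14.9 and 9.42 CPM in WT replicates 1 and 2. In CD44+ NK1.1+ cells Il1rl1, the IL-33 receptor gene that ends 133 bases before Il18r1, was higher in Ezh2-KO, at 9.86 CPM against 2.27 CPM in WT (2.12, adjusted p = 0.0302). With stage, 7 of the 23 were higher and 2 lower in CD44+ NK1.1+ than in CD44+ NK1.1- cells (median 0.16), beside 16.4% of all genes higher and 16.1% lower. Irak2 (1.62, adjusted p = 0.00318) was among the higher ones. Irak3, an inhibitory member of the family, was lower (-1.999, adjusted p = 0.00117).

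Of 21 tested regulators of Ifng transcription, 1 rose and 5 fell in Ezh2-KO CD44+ NK1.1- cells (median -0.25), beside 3.78% of all genes that rose and 1.16% that fell. The one that rose was Eomes, a T-box factor that drives Ifng in NK and CD8 T cells, at 27.2 and 26.0 CPM in Ezh2-KO against 0.451 and 0.516 CPM in WT (5.76, adjusted p = 0.0002). Those that fell were Tbx21, the gene of T-bet, at 48.7 and 45.8 CPM in Ezh2-KO against 124 and 107 CPM in WT (-1.29, adjusted p = 0.00342), Ikzf3 (-0.78, adjusted p = 0.00826), Runx3 (-0.86, adjusted p = 0.0247), Nfatc2 (-0.57, adjusted p = 0.0261) and Id2 (-0.49, adjusted p = 0.0353). Tbx21 differed little between the WT replicates, unlike Ifng. In CD44+ NK1.1+ cells Eomes remained higher in Ezh2-KO, at 72.2 CPM against 0.820 CPM in WT (6.45, adjusted p = 0.00112), and Tbx21 was at 356 CPM against 378 CPM in WT (-0.09, adjusted p = 0.958). Over the subsets 1 of the 21, Eomes (5.66, adjusted p = 0.00073), rose and 7 fell (median -0.22), beside 6.43% of all genes that rose and 4.89% that fell. The 7 were Tbx21 (-0.96, adjusted p = 0.0371), Runx2 (-0.81, adjusted p = 0.0396), Ikzf3, Irf1, Nfatc2, Id2 and Zbtb7b, the last 5 by -0.57 to -0.23. In CD44+ NK1.1- cells Runx2 was at 5.49 to 5.53 CPM in Ezh2-KO, against 15.1 and 9.50 CPM in WT replicates 1 and 2. Irf1 was at 139 CPM in Ezh2-KO, against 269 and 182 CPM in WT replicates 1 and 2. With stage, 11 of the 21 were higher and 1 lower in CD44+ NK1.1+ than in CD44+ NK1.1- cells (median 0.69), with Tbx21 at 2.31 (adjusted p = 0.000282), beside 16.4% of all genes higher and 16.1% lower.

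Of 35 tested genes of interferon-gamma receptor signalling and its targets, 1 rose and 3 fell in Ezh2-KO CD44+ NK1.1- cells (median -0.18). Of all genes tested 3.78% rose and 1.16% fell. The GTPase gene Iigp1 rose (0.65, adjusted p = 0.0316), and the guanylate-binding protein genes Gbp9 (-0.50, adjusted p = 0.0356) and Gbp4 (-0.50, adjusted p = 0.0425) fell, besides Socs1. Over the subsets 7 of 35 fell and none rose (median -0.23), beside 4.89% of all genes that fell and 6.43% that rose. These were Gbp4 (-0.47, adjusted p = 0.00617), Gbp7 (-0.42, adjusted p = 0.00701), Gbp9 (-0.44, adjusted p = 0.0127), Gbp6 (-0.42, adjusted p = 0.0268), Icam1 (-0.53, adjusted p = 0.0352), Irf1 (-0.53, adjusted p = 0.0401) and Socs1. Icam1 was at 31.1 to 35.8 CPM in the Ezh2-KO CD44+ NK1.1- replicates, against 62.5 and 45.6 CPM in WT replicates 1 and 2. Without WT replicate 1, 16 were lower and 4 higher over the subsets, beside 20.4% of all genes called. In CD44+ NK1.1+ cells none passed. At an unadjusted p under 0.05, 15 of the 35 were lower in Ezh2-KO, beside 3.93% of all genes tested, with a median of -0.38. This sets 1 library beside 1 library, and genes of a list are not replicates of a genotype. A difference by genotype and another difference between these libraries cannot be told apart. With stage, 15 of 35 were higher and 2 lower in CD44+ NK1.1+ than in CD44+ NK1.1- cells (median 0.40), beside 16.4% of all genes higher and 16.1% lower.

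The 19 other NKT1 genes tested, such as Il2rb and Cxcr3, were the list that moved most with stage, and 18 of them were higher in CD44+ NK1.1+ than in CD44+ NK1.1- cells (median 3.34), beside 16.4% of all genes. Klrb1c, the gene for NK1.1, is among the 18 (3.99, adjusted p = 0.0251 by edgeR). Its difference follows from how the subsets are defined. Between Ezh2-KO and WT in CD44+ NK1.1- cells, Cd7, Cxcr3, Il2rb and Id2 fell, 4 of 19, and 1, the chemokine gene Ccl3, rose (5.01, adjusted p = 0.0157), with a median of -0.70, beside 1.16% of all genes that fell and 3.78% that rose. Over the subsets 2 of the 19 rose and 2 fell (median -0.49), beside 6.43% of all genes tested that rose and 4.89% that fell. Id2 is also on the list of Ifng regulators. Irf1 is on that list and on the list of interferon-gamma targets, and the lists of IL-12 and interferon-gamma signalling share genes, among them Jak1, Jak2 and Socs1.

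As a description over the 8 libraries, which share subset and genotype, the genes whose log2 CPM followed Il18rap most closely were Anxa6, Ttc7 and Il2rb, with Pearson r of 0.997, 0.996 and 0.995. Those closest to Ifng were Triobp, Arpc5l and Unc119, with r of 0.99, and without WT replicate 1 they were Ly6c2, Ehd4 and Zdhhc7, so that none of the 3 names stayed. For Il12rb2 they were Zdhhc7, Sytl2 and Flt3l and for Hopx Fbxw2, Ptk2b and Malt1. Among the 9 genes themselves, Il12rb1 stood apart, with r between -0.40 and 0.42 to the other 8. Ifngr2 had r of -0.98 with Stat4 and -0.97 with Ifngr1, the other chain of its own receptor.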

How the data were processed

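RNA was extracted from thymic NKT cell subsets with a column kit, made into TruSeq libraries and run over 4 HiSeq lanes each, per the labels. The values the authors deposited are raw read counts per gene and the gene length in bases, in 1 table whose 8 columns equal the 8 single-library files. The submitters' processing notes name CASAVA, Subread 1.4.3-p1, featureCounts and mm10. Annotation and strand are not named there. Groups come from the labels, and replicates are numbered in accession order. Since 4 of the 6 groups have 1 library, their tests borrow the spread of the CD44+ NK1.1- replicates.

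From these counts, edgeR 4.0.16 (R 4.3.3) kept 13794 genes (filterByExpr over the 6 groups), scaled by TMM, and fitted robust quasi-likelihood models, 1 with the 6 groups (2 residual degrees of freedom) and 1 with subset plus genotype (4 residual degrees of freedom). CPM is the count per 1e6 of the TMM-scaled library size. Adjusted p-values are Benjamini-Hochberg over all tested genes, with 0.05 as threshold, and SE is the fold change divided by the root of the test statistic. The steps were tested on simulated data. Alternatives used DESeq2 1.42.0, limma-voom (limma 3.58.1), other scalings and filters, and left-out libraries. Counting intervals are 95% and cover counting error only.

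The 9 genes and all lists were chosen with earlier results of these data known. Named by rule were the 9 genes, Ezh2, Tbx21, Eomes, Klrb1c and Il4, the called genes and up to 4 further genes of smallest p of each list, and the 3 genes of highest correlation; examples outside that rule (Fos, Tnfaip3, Nfkbia, Gadd45b, Bhlhe40, the ligands, Cd44, Serbp1) were chosen after their values were seen. Some genes are not reported here.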

Additional observations from a re-analysis of the deposited data

How the results depend on the processing

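No paired analysis was possible because the labels carry no replicate numbers that groups share. Leaving out a library of CD44+ NK1.1- cells leaves 1 residual degree of freedom in the model of 6 groups, and the spread is then that of the Ezh2-KO pair alone (without a WT replicate) or of the WT pair alone (without an Ezh2-KO replicate), which by construction raises or lowers the counts of calls. Over these fits the number of the 9 genes called was 0 to 8 for Ezh2-KO against WT CD44+ NK1.1- cells (1 with all libraries), 0 to 5 for CD44+ NK1.1+ cells (0), 0 to 4 for CD44- NK1.1- cells (0), 4 to 9 for CD44+ NK1.1+ over CD44+ NK1.1- cells (7), 0 to 9 for CD44+ NK1.1- over CD44- NK1.1- cells (2) and 6 to 9 for CD44+ NK1.1+ over CD44- NK1.1- cells (8). It was 0 to 6 and 0 to 7 for the interactions (0 each) and 1 to 3 over the subsets (1). The last range includes the 4 unreplicated libraries, left out in turn after seeing the data.

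With the DESeq2 Wald test the number called was 5 in Ezh2-KO against WT CD44+ NK1.1- cells, 5 for CD44+ NK1.1- over CD44- NK1.1- cells, 3 over the subsets and 2 for the interaction with NK1.1+ cells, and the cause was not tested. Except for the interaction, the share of all genes that this test called is not given beside these counts. With no filter on low counts it was 2 in Ezh2-KO against WT CD44+ NK1.1- cells. In WT libraries alone it was 1 for CD44+ NK1.1- over CD44- NK1.1- cells and 5 for CD44+ NK1.1+ over CD44- NK1.1- cells, and in Ezh2-KO libraries alone it was 0 for CD44+ NK1.1- over CD44- NK1.1- cells, with fewer libraries in each contrast. Signs turned for Ifngr1 between genotypes in CD44+ NK1.1- cells (-0.56 to 0.14 over the left-out replicates), Hopx in the interaction (-0.023 to 0.79), Stat4 over the subsets (-0.634 to 0.0257) and Il18r1 with stage in WT libraries alone (-0.12). Levels per kilobase leave every fold change as it is.

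Over all genes, the calls for Ezh2-KO against WT CD44+ NK1.1- cells numbered 682, against 101 and 108 without Ezh2-KO replicate 1 or 2 and 3752 and 5792 without WT replicate 1 or 2. In CD44+ NK1.1+ cells there were 131, against 233 with no filter, 197 with DESeq2, 20 with limma-voom and 25 to 2437 over the left-out replicates. In CD44- NK1.1- cells there were 33, against 87, 94, 7 and 1 to 2486 in the same order. Over the subsets there were 1561, against 489 to 2794 over the left-out libraries. For CD44+ NK1.1+ over CD44+ NK1.1- cells there were 4479, against 1519 to 8585 over the left-out replicates, 2565 in Ezh2-KO alone and 1416 in WT alone. For CD44+ NK1.1- over CD44- NK1.1- cells there were 367, against 83 to 4394, and 68 in Ezh2-KO alone. For CD44+ NK1.1+ over CD44- NK1.1- cells there were 4438, against 2167 to 8661, 2118 in Ezh2-KO alone and 2052 in WT alone. The interaction with NK1.1+ cells had 0 calls, against 1 with no filter, 28 with DESeq2 and up to 2634 over the left-out replicates. The other interaction had 3, against 24 with no filter, 28 with DESeq2, 1 with at least 1 CPM in 2 libraries and 1 to 3063 over the left-out replicates. Depth limits Ifng most, with 5 to 22 counts in CD44- NK1.1- and Ezh2-KO CD44+ NK1.1- libraries.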
